A study of Mus musculus with 12 samples.

Results

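The genes described here build and supply the DNA replication fork. They are 35 of the 53801 genes counted in each table, chosen by name for their known roles at the fork, in deoxynucleotide synthesis and in chromatin assembly behind the fork. All 35 had enough counts to be tested in both comparisons. The libraries came from cutaneous squamous cell carcinomas of FVB mice, and each group had 3 libraries. Reporter-negative and reporter-positive carcinoma cells were basal tumor cells that carried a Rosa-YFP lineage mark and the integrins CD49f and CD29, and were split by an mScarlet reporter of TGF-beta signalling. FceRIa-negative and FceRIa-positive macrophages were CD45+ F4/80+ tumor cells split by the surface alpha chain of the high-affinity IgE receptor. How the tumors were started, the driver of the YFP mark, the ages of the mice and any pooling of mice are not stated in the labels. The series text gives the aim as finding expression particular to TGF-beta-responding carcinoma cells, and the same kind of comparison for the macrophages.

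DNA replication opens in S phase, when the MCM helicase joined to the GINS complex unwinds the double helix and replication protein A coats the exposed single strands. DNA polymerase alpha with its primase lays down primers, replication factor C loads the PCNA clamp, and polymerases delta and epsilon copy the strands. Ribonucleotide reductase, thymidylate synthase and thymidine kinase supply deoxynucleotides, and most of these genes are transcribed in late G1 and S phase under E2F factors. TGF-beta is a classical inhibitor of the keratinocyte cell cycle.

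Total counts ran from 27951632 to 40041144 per library. Nothing in the labels says that the libraries of a group came from separate animals, so each p-value reflects only how these libraries spread, which could be technical. Carcinoma replicates 1 and 3 were much closer to each other than to replicate 2, as their counts gave a chi-square divided by its degrees of freedom of 3.13 (reporter-negative) and 1.65 (reporter-positive), and pairs with replicate 2 gave 46.8 to 98.9. An unpaired fit ignored the replicate number and a paired fit took it as a block. The adjusted p comes from the quasi-likelihood test of edgeR over all genes of a comparison, and a gene was called at an adjusted p under 0.05. Levels are CPM, the counts of a gene scaled to library size, differences are positive minus negative on the log2 scale with their standard error, and means are given with the SD of 3 libraries. Marker genes chosen for each cell type were detected in the sorted cells. All 10 keratinocyte markers were detected in the carcinoma cells, with a summed level of 66413 to 77318 CPM, and all 11 macrophage markers in the macrophages, with 15804 to 32242 CPM.

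The DNA synthesis genes were lower in the reporter-positive carcinoma cells. For all 35 genes each positive library lay below every negative library, where 13.6% of all genes tested lay apart in this direction and 14.6% in the other. All 35 log2 differences were below 0, as were 49.5% of those of all genes tested. The median log2 difference of the 35 genes was -0.42, against 0.003 over all genes tested, and single genes were between 10.7% and 34.5% lower. The unpaired fit called 6 of them lower and 0 higher, against 0.235% of all genes called lower, and at an unadjusted p under 0.05 it held 31 lower and 0 higher, and 1134 genes lower and 1508 higher of the 13604 tested. The paired fit called 30 lower and 0 higher, against 7.34% of all genes called lower. DESeq2 without the block called 22 of the 35 genes lower, against 455 of all genes, and 0 higher. With the block it called 29 lower, against 644 of all genes, and 0 higher. The summed level of the 35 genes was 3012 ± 45.9 CPM among the negative and 2270 ± 298 CPM among the positive cells. In sorted bulk cells, fewer cells in S phase and less of these transcripts per cell cannot be told apart.

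**Figure D1:**
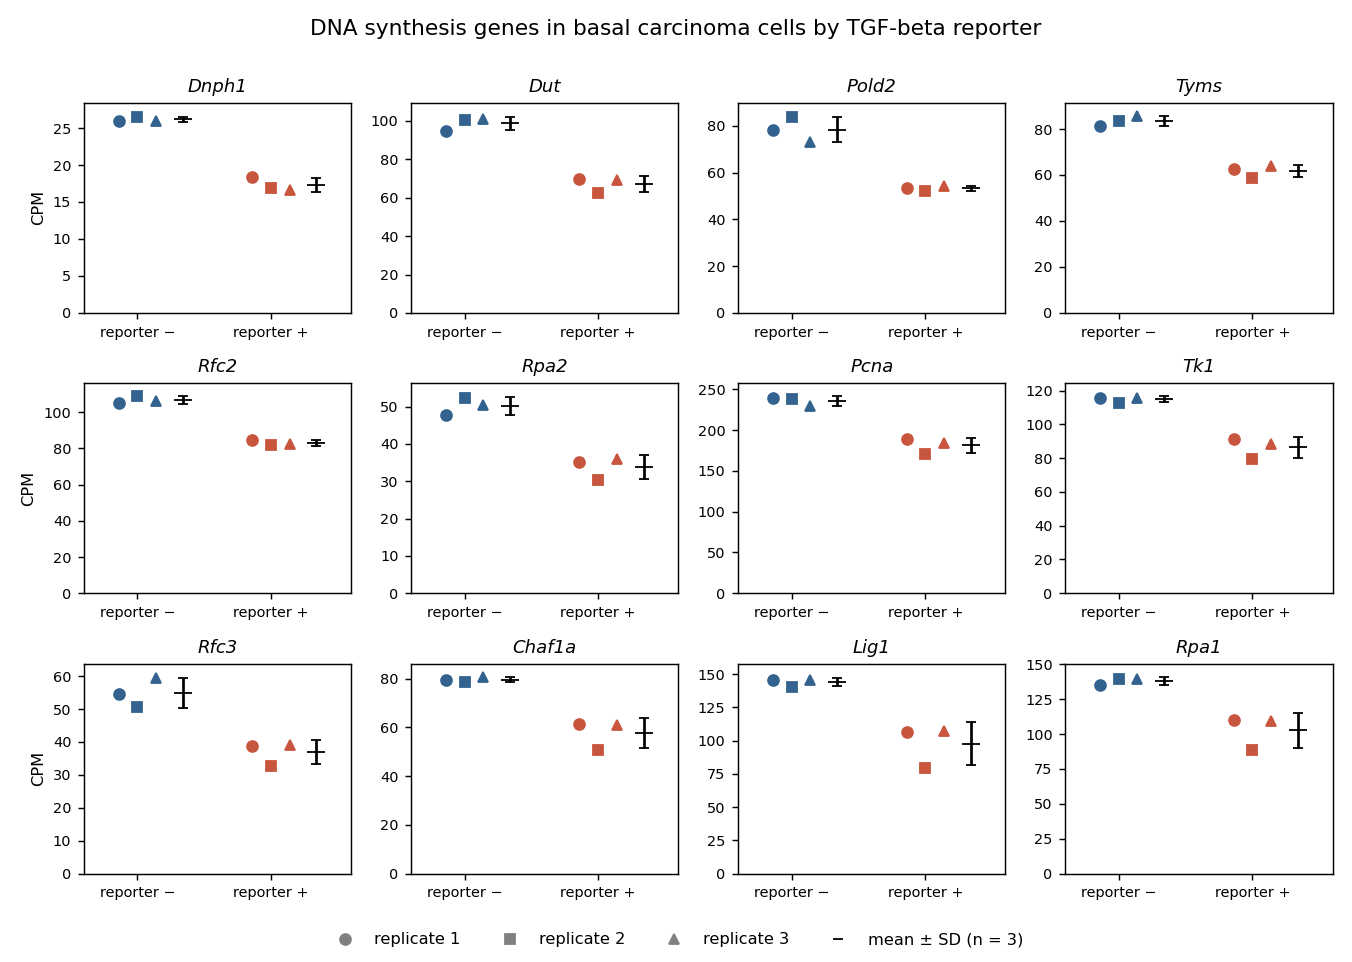
CPM of the 12 DNA synthesis genes with the smallest unpaired p in the carcinoma comparison, by library (blue, reporter-negative; red, reporter-positive; circle, square and triangle for replicates 1, 2 and 3), with the mean and SD of 3 libraries beside them. In every panel the 3 positive libraries lie below the 3 negative ones, and for Lig1 and Rpa1 positive replicate 2 lies lowest, at 79.1 and 88.5 CPM.

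Genes of nucleotide supply held 3 of the 6 unpaired calls. Dnph1, a hydrolase that removes aberrant deoxynucleoside monophosphates (chromosome 17, 46496711 to 46499624, GRCm38), was at 26.01, 26.5 and 25.9 CPM in negative replicates 1 to 3 and at 18.3, 16.8 and 16.6 CPM in positive replicates 1 to 3. On the log2 scale it fell by 0.60, with a standard error of 0.07 and an adjusted p of 0.0391. The highest positive library was well below the lowest negative one, and the libraries of each group were within 2 CPM of each other. Dut, the dUTPase that keeps uracil out of DNA and makes the precursor of thymidylate (chromosome 2, 125247190 to 125258608), was at 94.8, 100.3 and 101 CPM among the negative and 69.7, 62.4 and 69.4 CPM among the positive libraries. It fell by 0.56 (SE 0.07, adjusted p = 0.0393). Tyms, the thymidylate synthase that acts on the product of Dut (chromosome 5, 30058202 to 30073617), was at 81.5, 83.3 and 85.7 CPM against 62.5, 58.8 and 64.0 CPM and fell by 0.43 (SE 0.06, adjusted p = 0.0475). Transcripts of consecutive enzymes of the thymidylate route were thus lower in each positive library.

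The salvage enzyme Tk1, the thymidine kinase of cycling cells, was at 116, 113 and 116 CPM among the negative and 91.3, 79.4 and 88.4 CPM among the positive libraries. Its difference of -0.41 ± 0.07 had an adjusted p of 0.0614 without and 0.00825 with the block. Ribonucleotide reductase makes deoxynucleotides from ribonucleotides, and its large subunit gene Rrm1 was called in the paired fit (-0.33 ± 0.08, adjusted p = 0.0413). The small subunit gene Rrm2, at 299, 270 and 296 CPM against 261, 172 and 260 CPM, was not called in either fit (adjusted p = 0.356 and 0.0563). Its groups did not overlap, but positive replicate 2 stood far below the other positive libraries.

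At the polymerases, Pold2, the accessory B subunit of polymerase delta (chromosome 11, 5872180 to 5878292), was at 78.4, 83.9 and 72.9 CPM among the negative and 53.4, 52.0 and 54.4 CPM among the positive libraries. It fell by 0.56 (SE 0.07, adjusted p = 0.0408). The catalytic subunit gene Pold1 was at 53.1, 52.7 and 50.2 CPM against 38.6, 28.1 and 39.0 CPM, a difference of -0.56 ± 0.13. Both subunits were lower by nearly the same amount, and Pold1 varied more between positive libraries, with an adjusted p of 0.0957 without and 0.0191 with the block. The paired fit also called the accessory subunit gene Pold3 and the epsilon catalytic subunit gene Pole, while Pole2 had an adjusted p of 0.0702. All 4 genes of the polymerase alpha and primase complex (Pola1, Pola2, Prim1 and Prim2) were called lower in the paired fit and 0 of 4 in the unpaired fit, with unpaired log2 differences from -0.48 to -0.24.

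The clamp and its loader were lower too. Pcna was at 239.9, 238.7 and 229 CPM among the negative and 189, 171 and 184 CPM among the positive libraries, with an adjusted p of 0.0608 without and 0.00977 with the block. Of the loader genes, Rfc2 (chromosome 5, 134581366 to 134601805) was at 105, 109 and 106 CPM against 84.8, 81.7 and 82.7 CPM and fell by 0.36 (SE 0.05, adjusted p = 0.0477). Rfc3 was at 54.6, 50.5 and 59.4 CPM against 38.7, 32.7 and 39.2 CPM, a larger difference of -0.57 ± 0.10 with more spread (adjusted p = 0.0628 without and 0.00492 with the block). The large subunit gene Rfc1 had a difference of -0.16 ± 0.07 and was called in neither fit (adjusted p = 0.242 and 0.0781). The paired fit called 4 of the 5 loader genes, all but Rfc1. About 15.1% of the exon length of Rfc2 is shared with Lat2 on the other strand, so its counts are uncertain in that respect. The same holds for Rfc4 (12.7%, Eif4a2) and Rfc5 (10.7%, Wsb2).

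Replication protein A has 3 subunits. The middle subunit gene Rpa2 (chromosome 4, 132768332 to 132778752) was at 47.7, 52.3 and 50.5 CPM among the negative and 35.2, 30.2 and 36.03 CPM among the positive libraries. It fell by 0.57 (SE 0.09) with an adjusted p of 0.04995, at the edge of the threshold. The large subunit gene Rpa1, at 135, 139.8 and 139.5 CPM against 110.1, 88.5 and 109.6 CPM, and the small subunit gene Rpa3 were called in the paired fit (adjusted p = 0.0181 and 0.0169). All 3 genes of the complex thus passed with the block. Among the GINS genes, whose products join the helicase, the paired fit called Gins1 and Gins2 and did not call Gins3 and Gins4 (adjusted p = 0.0769 and 0.0543). Of the exon length of Gins2, 67.3% is shared with Gse1 on the other strand.

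Lig1, the ligase that seals Okazaki fragments, was at 146, 141 and 146 CPM among the negative and 106, 79.1 and 108 CPM among the positive libraries, and differed by -0.56 ± 0.12 (adjusted p = 0.0881 without and 0.0109 with the block). Fen1, the nuclease that trims those fragments, was called in the paired fit (-0.37 ± 0.07, adjusted p = 0.0175), and 84.2% of its exon length is shared with genes on the other strand. Both genes of fragment processing were therefore lower with the block. Behind the fork, all 4 genes of chromatin assembly and maintenance methylation were called in the paired fit and 0 of 4 in the unpaired fit. Chaf1a, the large subunit of the histone chaperone CAF-1, was at 79.6, 78.6 and 80.6 CPM against 61.5, 50.6 and 61.1 CPM, with 52.5% of its exon length shared with Ubxn6, a difference of -0.46 ± 0.09 (adjusted p = 0.0728 without and 0.00977 with the block). Uhrf1, which reads half-methylated DNA and brings in the methyltransferase Dnmt1, was at 157, 147 and 153 CPM against 113, 75.0 and 111 CPM. Its -0.61 ± 0.16 was the largest unpaired difference among the 35 genes, and its adjusted p was 0.117 without and 0.0145 with the block. E2f1, the transcription factor that drives many of these genes, was at 22.9, 25.2 and 22.6 CPM against 18.8, 15.2 and 17.4 CPM (-0.46 ± 0.10, adjusted p = 0.0917 without and 0.028 with the block).

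The size of the drop depended on the replicate number. Each of the 105 same-number ratios of the 35 genes was below 1, which follows from groups that do not overlap. The median ratio of positive to negative was 0.806 for number 1, 0.634 for number 2 and 0.782 for number 3, and all 35 genes had their lowest ratio in number 2. Without positive replicate 2 the unpaired fit called 18 members lower, against 230 of all genes. The median log2 difference of the members was then -0.34. Leaving out any other single library took the unpaired count of 6 to 0 (median between -0.48 and -0.40). In the paired fit without number 1, 2 or 3, 29, 35 and 23 members were called lower, against 498, 2802 and 340 of all genes. With replicates 1 and 3 of each group summed, the paired fit called 18, against 244 of all genes, and the unpaired fit 0.

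Other markers moved with the reporter and with replicate 2. Among 10 keratinocyte differentiation markers, of which 9 were tested, 6 rose in the paired fit, where 10.7% of all genes tested were called higher. Krt10 and Lor had log2 differences below 0 and were not called. The summed level of the 10 markers was 986, 1390 and 1040 CPM in negative replicates 1 to 3 and 1658, 4685 and 1586 CPM in the positive ones. It was thus highest in positive replicate 2, where the summed DNA synthesis genes were lowest at 1926 CPM. The 8 leukocyte markers summed to between 37.4 and 110.2 CPM among the negative and 29.6 and 133 CPM among the positive libraries, and edgeR called 0 of the 7 tested in either fit. Of 11 macrophage markers 3 rose in the paired fit, with sums of 19.7 to 68.8 CPM among the negative and 26.4 to 95.6 CPM among the positive libraries. Among 5 neutrophil markers 2 rose, S100a8 and S100a9, both highest in positive replicate 2. The neutrophil markers Csf3r, Cxcr2 and Retnlg were not called. The T and NK cell markers Cd3e, Cd3d, Ncr1 and Nkg7 were at 0 in all 6 libraries. Of 10 genes induced by tissue dissociation, 5 rose in the paired fit, and their sums in replicate 2 (2923 and 3674 CPM) were below those of the other libraries (6632 to 7740 CPM). The unpaired fit called 0 of the differentiation, macrophage, neutrophil and dissociation genes. Of the 10 keratinocyte markers it called 1, Dsp, which was higher (0.63, adjusted p = 0.0475). The paired fit called Dsp and Cdh1 higher and Krt15 lower, where 7.34% of all genes tested were called lower. The part of these markers in the result was not tested.

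**Figure D2:**
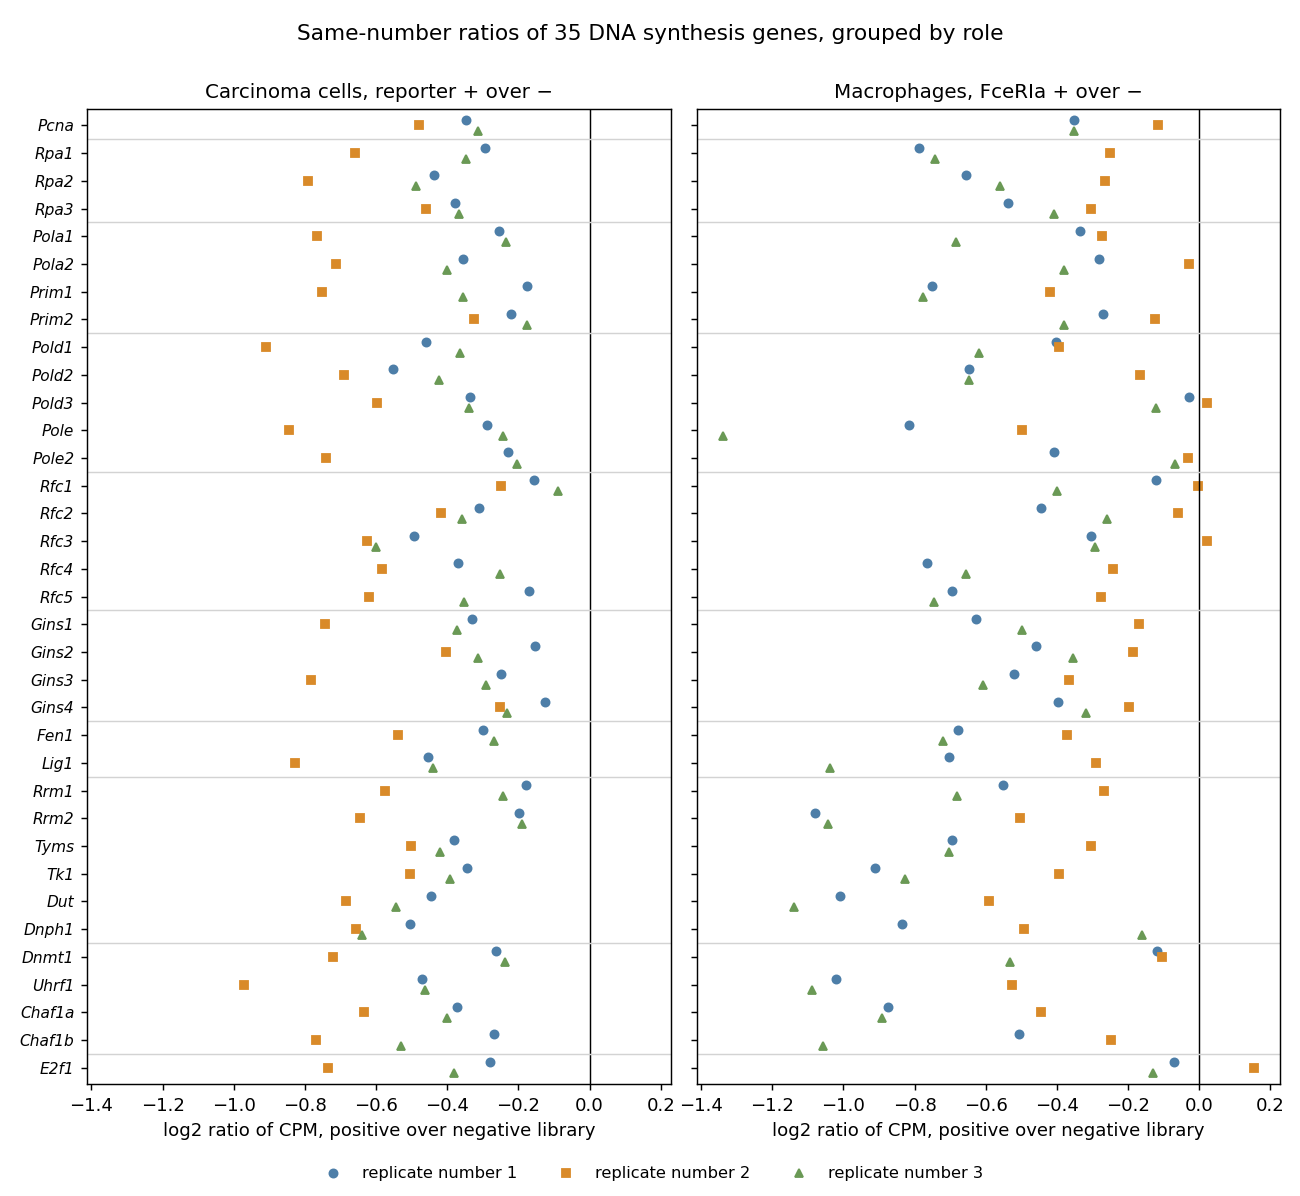
Log2 ratio of CPM in the positive over the negative library of the same replicate number, for each of the 35 genes grouped by role (left, carcinoma cells; right, macrophages). All 105 carcinoma ratios lie below 0, with number 2 the lowest for all 35 genes, and 102 of 105 macrophage ratios lie below 0, with number 2 the closest to or above 0 for 34 genes.

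Sequences around listed starts of transcription were examined for what the members share beyond their names. RefSeq promoter windows on GRCm38.p6, from 250 bases before to 50 after a start, were found for 29 of the 35 genes (not for Prim2, Pole, Rfc2, Gins1, Gins2 and Gins4). The E2F consensus was searched on both strands as TTTCCCGC, TTTCGCGC, TTTGCCGC and TTTGGCGC. A match was found for 9 of the 29 genes (31.0%), against 2.61% of all 27025 genes with a window and 4.39% of the 11288 of them that were tested in either comparison. The share of genes with the CCAAT letters was 55.2% against 41.1% of all genes. The 5 genes with a match wholly before a listed start are shown, 5′ to 3′ in the direction of the gene, with the matched letters in capitals, in the sense of the gene for Uhrf1 and Rfc3 and on the opposite strand for Dnmt1, Pola1 and Gins3.
Uhrf1 (chr17:56304102-56304161, plus strand): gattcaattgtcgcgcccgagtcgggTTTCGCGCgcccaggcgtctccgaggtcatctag
Dnmt1 (chr9:20952809-20952868, minus strand): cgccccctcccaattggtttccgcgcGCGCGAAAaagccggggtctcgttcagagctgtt
Rfc3 (chr5:151651209-151651244, minus strand): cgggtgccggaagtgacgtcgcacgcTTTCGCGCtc
Pola1 (chrX:93632260-93632319, minus strand): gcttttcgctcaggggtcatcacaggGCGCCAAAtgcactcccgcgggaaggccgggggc
Gins3 (chr8:95633492-95633551, plus strand): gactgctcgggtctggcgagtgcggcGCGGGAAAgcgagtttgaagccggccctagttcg
The 5 matches begin between 219 and 10 bases before the start of their window. The table holds several starts for some genes, so such genes had more windows to match, and 9 of the 36 windows of the members (against 2.26% of all 32851 windows) held one. The matches of Dnmt1, Uhrf1, Lig1, Gins3 and Rfc3 lie inside the annotated gene (5′ end at 20959888, 56303321, 13277283, 95633453 and 151651242). Of the 5 matches shown, only that of Pola1 lies before the annotated 5′ end (93632155). The windows at the 5′ ends of Dnmt1 and Uhrf1 held no match. Lig1, Pold1, Pold3 and Pole2 held a match only after the start. The median log2 difference in the carcinoma cells was -0.43 for the 9 genes with a match and -0.42 for the 20 without, and in the macrophages -0.44 and -0.56. A match in these windows is a description of letters, and genes with and without one had similar carcinoma medians.

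Other genes of the pathway, from lists set for this description, moved the same way in the carcinoma cells. In the unpaired fit 0.235% and in the paired fit 7.34% of all genes tested were called lower. Of 19 licensing and helicase genes, 1 was called lower in the unpaired and 14 in the paired fit (median -0.50). Mcm10, an initiation factor, was at 30.6 ± 1.68 CPM among the negative and 17.7 ± 0.726 CPM among the positive cells and fell by 0.79 (SE 0.07, adjusted p = 0.0341). Cdt1, which loads the helicase, and the helicase subunit gene Mcm5 were called with the block, with differences of -0.54 (adjusted p = 0.0119) and -0.57 (adjusted p = 0.0106). Of 29 other nucleotide synthesis genes, 13 were called lower in the paired fit and 0 in the unpaired fit, with a smaller median of -0.21. They include Dtymk, the kinase next to thymidylate synthase, which was called lower with the block (-0.38, adjusted p = 0.00878), and the purine and pyrimidine enzyme genes Adsl and Umps. Of 21 other fork genes 13, of 13 other chromatin assembly genes 9, of 16 E2F and RB family genes 7 and of 14 mitotic genes 12 were called lower in the paired fit, and 0 of each list in the unpaired fit or higher in either. Among these, the cyclin gene Ccne2 fell by 0.60, the histone chaperone gene Nasp by 0.41 and the cyclin gene Ccnb2 by 0.57 in the paired fit. Replication and mitotic genes had similar medians here, -0.42 and -0.38. The groups lay apart, with the positive libraries lower, for 3 of 14 mitotic genes. They did so for all 35 DNA synthesis genes and for 13.6% of all genes tested. The same held for 17 of 19 licensing and helicase genes, 14 of 21 other fork genes and 20 of 29 other nucleotide synthesis genes. It also held for 10 of 13 other chromatin assembly genes and 8 of 16 E2F and RB genes.

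**Figure D3:**
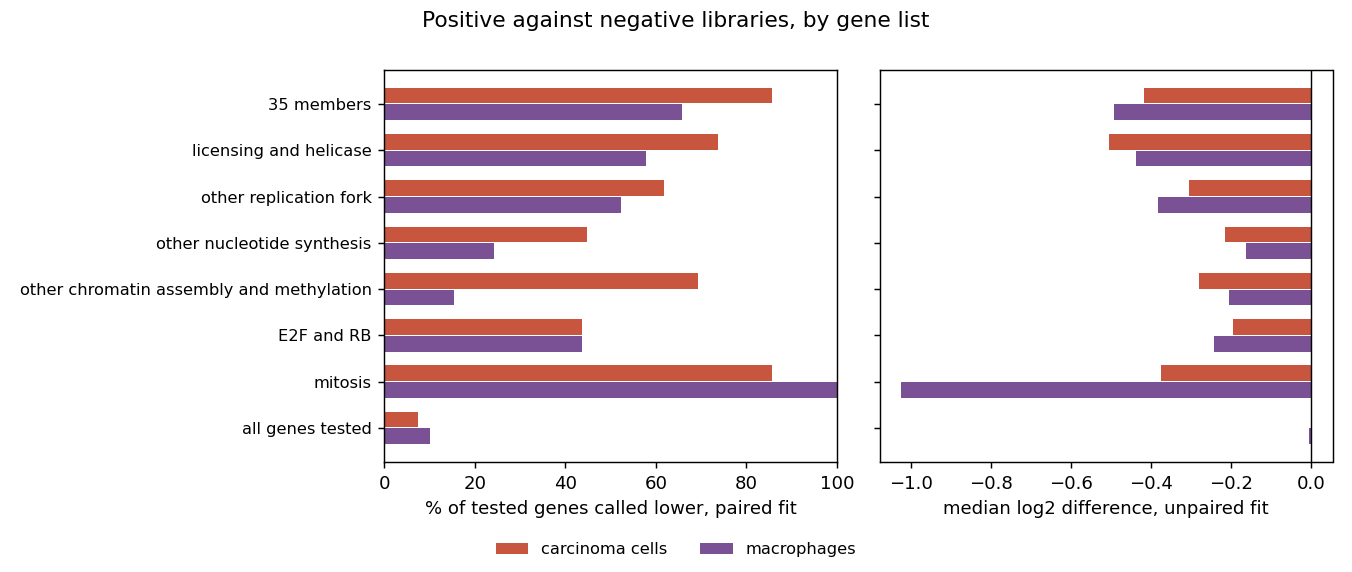
Left, percentage of the tested genes of each list called lower in the paired fit; right, the list's median log2 difference in the unpaired fit (red, carcinoma cells; purple, macrophages). The 35 DNA synthesis genes stand at 85.7% and 65.7%, against 7.34% and 10.2% of all genes tested, and the macrophage median of the mitotic genes is the lowest bar at -1.03.

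In the macrophages the same genes were lower in the FceRIa-positive cells. All 35 log2 differences were below 0, where 50.7% of all genes tested were, with a median of -0.49 against -0.004 over all genes. The groups did not overlap for 19 of the 35 genes, all lower, against 9.78% of all genes tested. The unpaired fit of edgeR called 0 members and 0 genes in all (0% of genes lower), while at an unadjusted p under 0.05 it held 18 members lower and 0 higher, and 1102 genes lower and 1243 higher in all. DESeq2 without the block called 7 members lower, against 605 of all genes, and 0 higher. The paired fit called 23 lower and 0 higher, against 10.2% of all genes called lower. DESeq2 with the block called 22 lower, against 1362 of all genes. The summed level of the 35 genes was 1304 ± 257 CPM among the negative and 969 ± 109 CPM among the positive macrophages.

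**Figure D4:**
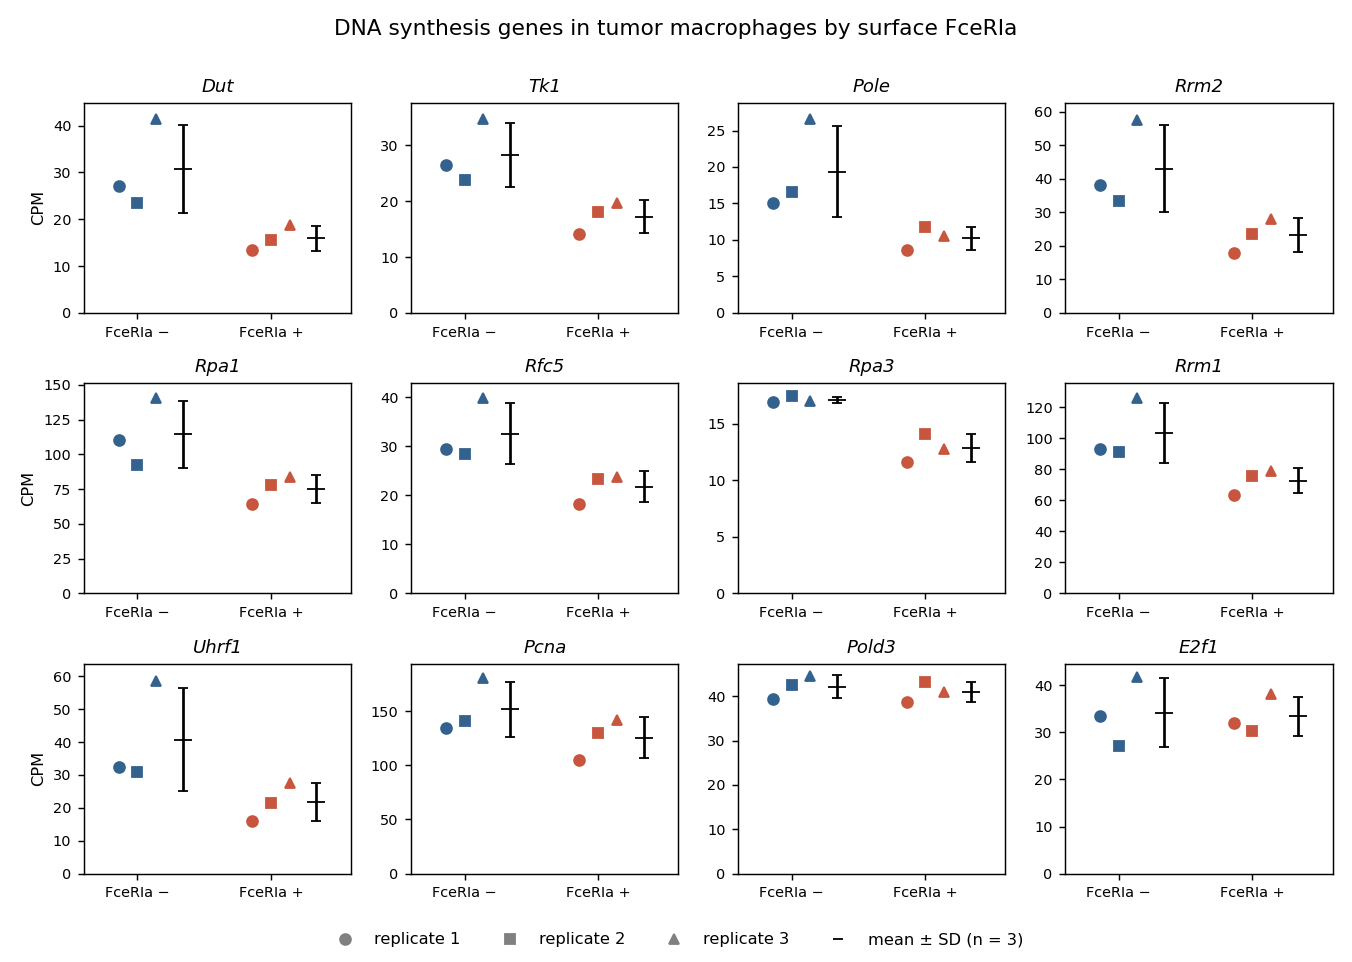
CPM by library of 12 DNA synthesis genes in the macrophages (blue, FceRIa-negative; red, FceRIa-positive; circle, square and triangle for replicates 1, 2 and 3), with the mean and SD of 3 libraries. The first 8 panels are the genes with the smallest unpaired p, all without overlap of the groups, and the groups overlap for Pcna, Pold3 and E2f1, which were chosen with Uhrf1 after their values were seen.

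Nucleotide supply again held large differences. Dut was at 27.1, 23.5 and 41.3 CPM in negative replicates 1 to 3 and at 13.5, 15.6 and 18.8 CPM in the positive ones, 48.0% lower in the mean. Its difference of -0.94 ± 0.24 had an adjusted p of 0.112 without and 0.00141 with the block. Tk1 was at 26.4, 23.8 and 34.7 CPM against 14.03, 18.1 and 19.6 CPM (-0.71 ± 0.19, adjusted p = 0.129 and 0.00383). Negative replicate 3 was the highest library for both. Rrm2 was at 38.1, 33.5 and 57.7 CPM against 18.0, 23.6 and 27.99 CPM (-0.89 ± 0.25, adjusted p = 0.142 and 0.00186). Rrm1 was at 93.4, 91.0 and 126 CPM against 63.7, 75.6 and 78.6 CPM (-0.51 ± 0.16, adjusted p = 0.181 and 0.00705). The large and small reductase subunits were thus both called lower with the block. Of the 6 nucleotide supply genes, 5 were called in the paired fit, and Dnph1 was not (adjusted p = 0.0801).

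At the fork, Pole, the catalytic subunit of polymerase epsilon, was at 15.1, 16.5 and 26.5 CPM against 8.56, 11.7 and 10.49 CPM (-0.92 ± 0.25, adjusted p = 0.132 without and 0.00586 with the block). All 3 subunits of replication protein A were called in the paired fit. Rpa1 was at 110.4, 92.4 and 140.1 CPM against 63.9, 77.7 and 83.8 CPM (-0.61 ± 0.18, adjusted p = 0.164 and 0.00751). Rpa3 was at 16.9, 17.4 and 17.0 CPM against 11.6, 14.1 and 12.8 CPM (-0.41 ± 0.13, adjusted p = 0.177 and 0.0198), with little spread in either group. Rfc5, a loader subunit, was at 29.6, 28.4 and 39.8 CPM against 18.3, 23.4 and 23.7 CPM (-0.58 ± 0.18, adjusted p = 0.174 and 0.00733). Of the other loader genes, the paired fit called Rfc4 and did not call Rfc1, Rfc2 and Rfc3 (adjusted p from 0.0762 to 0.243). Of polymerase alpha and primase it called Pola1 and Prim1, and of GINS all but Gins2 (adjusted p = 0.0595). Behind the fork, Uhrf1 (-0.88 ± 0.12), Chaf1a (-0.74 ± 0.12) and Chaf1b (-0.61 ± 0.15) fell in the paired fit, and Dnmt1 was not called (-0.25 ± 0.10, adjusted p = 0.111).

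E2f1 and Pold3 had the smallest macrophage differences of the 35 genes. E2f1 was at 33.6, 27.2 and 41.8 CPM among the negative and 32.0, 30.2 and 38.2 CPM among the positive macrophages, a difference of -0.03 ± 0.18 (adjusted p = 0.972 without and 0.913 with the block). Pold3 was at 39.4, 42.6 and 44.6 CPM against 38.6, 43.2 and 41.0 CPM (-0.04 ± 0.10, adjusted p = 0.915 and 0.713). For both genes the groups overlapped, and the sign for E2f1 changed when a single library was left out. Other members of the E2F family were among the genes that fell in the paired fit, E2f2 (-1.03, adjusted p = 0.000785) and E2f8 (-0.71, adjusted p = 0.00177).

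Among other pathway genes in the macrophages, all 14 mitotic genes were called lower in the paired fit and 0 in the unpaired fit, with a median of -1.03. Cdc20, the activator of the anaphase-promoting complex, Ccnb1, a mitotic cyclin, and the checkpoint kinase gene Bub1b fell by 1.22, 1.11 and 1.18. Of 19 licensing genes 11 were called lower and 0 higher, among them Mcm5 and Mcm7, which fell by 0.77 and 0.66. Of 21 other fork genes, 11 were lower and 1 higher, and the topoisomerase gene Top2a fell by 0.96 and the nuclease gene Dna2 by 0.78. Of 29 other nucleotide synthesis genes 7 were lower and 3 higher, with Ctps2, a CTP synthase, at a log2 difference of 0.29. Of 13 chromatin genes 2 were lower and 1 higher, and of 16 E2F and RB genes 7 were lower and 1 higher. Each of these counts is from the paired fit, in which 10.2% of all genes were called lower and 10.8% higher. The chromatin counts and the nucleotide synthesis genes called higher are near those shares. The unpaired fit called 0 genes of these lists.

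In the macrophages number 2 had the smallest differences. The median ratio of the 35 genes was 0.682, 0.832 and 0.652 for numbers 1, 2 and 3, and 34 genes had their highest ratio in number 2. Negative replicate 3 was the highest negative library for 33 genes. In the paired fit without number 1, 2 or 3, 4, 21 and 21 members were called lower, against 691, 1374 and 1606 of all genes. The 4 were Dut, Rrm2, Uhrf1 and Prim1. Leaving out single libraries moved the median between -0.59 and -0.37.

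Markers of other cells also moved with FceRIa. All 3 Langerhans cell markers (Cd207, Cd24a and Epcam, which is also on the keratinocyte list) fell in the paired fit, and their summed level was 367, 423 and 950 CPM in negative replicates 1 to 3 and 72.7, 73.0 and 93.9 CPM in the positive ones. That sum was highest in negative replicate 3, as were most DNA synthesis genes. Of 10 keratinocyte markers 9 fell in the paired fit, and they summed to between 2281 and 3873 CPM among the negative and 603 and 2268 CPM among the positive libraries. Members of this list differed in replicate 3. The basal keratin Krt14 was at 129 and 97.2 CPM in its negative and positive library, against 789 to 1706 CPM in the other macrophage libraries. Cdh1 and Epcam, in contrast, were highest in negative replicate 3, at 1455 CPM (846 and 547 CPM in negative replicates 1 and 2) and 529 CPM (224 and 163 CPM). Of 7 tested dendritic cell markers 4, of 5 neutrophil markers 4 and of 8 mast cell and basophil markers 3 were lower in the paired fit, and 10 of 11 macrophage markers were higher. Of 4 tested T and NK cell markers 3 were lower and 1 higher, with unpaired log2 differences from -4.62 to 1.47 and a median of -3.82. The sum of the list was 61.8 to 77.2 CPM in the negative and 122 to 169 CPM in the positive libraries. That sum thus went against most of the tested markers. Of 10 dissociation genes 4, and of 9 tested keratinocyte differentiation markers 5, were lower. Of 8 leukocyte markers 2 were lower and 1 higher, and of 5 endothelial markers 1 was higher. Of the tested fibroblast, melanocyte and B cell markers the paired fit of edgeR called 0. In that fit 10.2% of all genes tested were called lower and 10.8% higher, so a single call in lists this short is little beyond those shares. The macrophage markers summed to between 15804 and 20193 CPM in FceRIa-negative and 29484 and 32242 CPM in FceRIa-positive libraries. The neutrophil markers summed to between 127 and 667 CPM among the negative and 143 and 367 CPM among the positive libraries, the dendritic cell markers to between 983 and 1075 CPM and 725 and 958 CPM. No marker of these lists was at 0 in every macrophage library, and the part of these cells in the result was not tested.

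Side by side, 20 of the 35 genes were called lower in both paired fits, which is 66.7% of the 30 called in the carcinoma cells and 87.0% of the 23 called in the macrophages. Of all 35 genes, 65.7% were called in the macrophages and 85.7% in the carcinoma cells, so the overlap is at these base shares. The other 10 carcinoma calls were Pola2, Prim2, Pold3, Rfc2, Rfc3, Gins2, Fen1, Dnph1, Dnmt1 and E2f1, and the other 3 macrophage calls were Gins3, Gins4 and Rrm2. Pole2 and Rfc1 were called in neither. The 2 comparisons share no library, and the difference between their effects was not tested.

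The carcinoma cells held more of these transcripts than the macrophages. In a fit of both tables together, 31 of 35 genes were called higher and 2 lower in carcinoma cells, against 40.6% of all genes called higher and 44.8% lower. The libraries of the cell types did not overlap for 24 genes that were higher and 2 that were lower, against 33.8% and 37% of all genes, and the median log2 difference was 1.13 against -0.09 over all genes tested. Cell type and table cannot be told apart here, and negative and positive libraries that share a number resemble each other, so the p-values may be too small. Rrm2 was at 180.0 to 305 CPM in the 6 carcinoma libraries (median 273) and at 17.4 to 55.7 CPM in the 6 macrophage libraries (median 30.0), an 8.26-fold difference of the means (adjusted p = 2.06e-08). Tk1 was 4.66-fold, Chaf1a 4.57-fold and Lig1 4.43-fold higher in the carcinoma cells, and the 12 libraries did not overlap between cell types for any of these 4 genes. Pcna was 1.59-fold higher, at 179 to 246 CPM against 101 to 175 CPM. Rpa3 and Gins3 were not called (adjusted p = 0.113 and 0.631).

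E2f1 and Pold3 went the other way. E2f1 was at 15.8 to 25.9 CPM in the carcinoma cells and 26.6 to 40.3 CPM in the macrophages, 1.57-fold higher in macrophages (adjusted p = 0.000126). Pold3, a regulatory subunit of polymerase delta, was at 21.6 to 34.1 CPM against 37.3 to 43.0 CPM, 1.41-fold higher in macrophages (adjusted p = 2.57e-05). For both genes every macrophage library lay above every carcinoma library. The other polymerase delta genes had the opposite order, with Pold1 2.51-fold and Pold2 3.67-fold higher in the carcinoma cells.

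**Figure D5:**
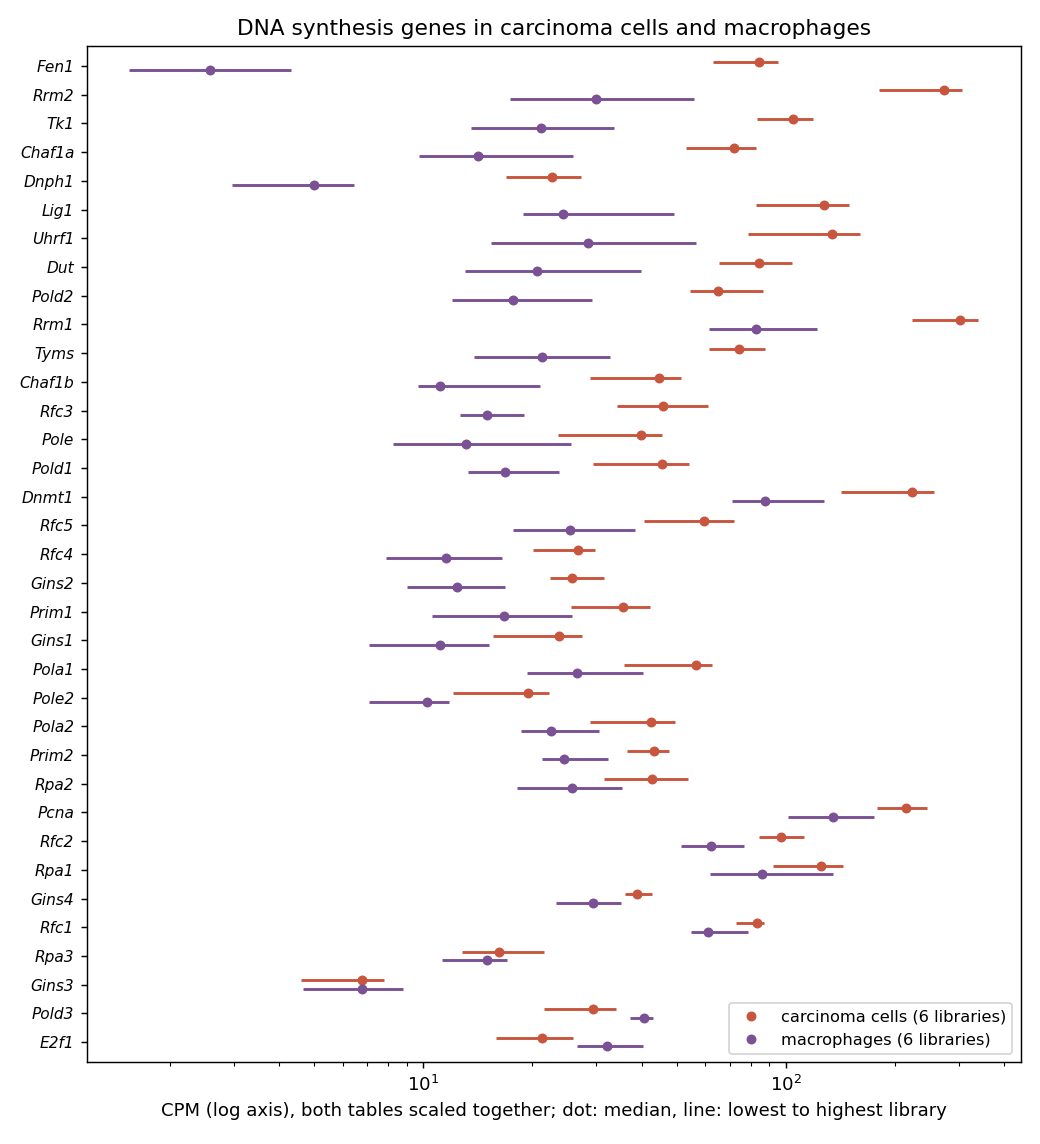
CPM on a log axis of the 35 genes in the 6 carcinoma libraries (red) and the 6 macrophage libraries (purple), scaled together; the dot is the median and the line runs from the lowest to the highest library. Genes are ordered by the log2 difference, from Fen1 at the top, with carcinoma levels far to the right, to Pold3 and E2f1 at the bottom, where the macrophage line lies to the right.

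Levels between genes were compared per kilobase of annotated exon length. In reporter-negative carcinoma cells Rrm2 and Pcna had the highest levels of the 35 genes, at 104 and 98.3 CPM per kilobase, and Gins3 the lowest at 2.70. The 5 loader genes were close to each other, from 13.8 (Rfc5) to 18.7 (Rfc4) CPM per kilobase. Rfc5 and Rfc4 share 10.7% and 12.7% of their exon length with genes on the other strand. The 3 genes of replication protein A stood at 24.7 (Rpa1), 16.8 (Rpa2) and 16.0 (Rpa3), a narrow range as well. The GINS genes spread more widely, from 2.70 for Gins3 to 30.3 for Gins4. In FceRIa-negative macrophages Pcna was highest at 63.3 CPM per kilobase and Gins4 next at 24.5, while Rrm2 stood at 15.6. Annotated exons that are not used in these cells make such levels too low, so the order is approximate.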

How the data were processed

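Per the labels' protocols, Trizol RNA (100 ng) of sorted cells went into Illumina TruSeq v2 libraries. The authors deposited raw counts per gene in 2 tables; FastQC, STAR and GRCm38 (mm10) are named in the submitters' processing notes, while neither the counter, its strand setting nor its annotation is named, and reads of overlapping genes cannot be told apart. Of the count columns, 4 belong to no sample of the series and were left out. The tables hold 53801 genes, of which 0 rows name no gene, and were joined by gene ID; coordinates and exon lengths are from GENCODE M21.

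The test was edgeR's quasi-likelihood F test (version 4.0.16, R 4.3.3) after filterByExpr and TMM scaling, with p adjusted by Benjamini-Hochberg, on 13604 genes in carcinoma cells and 14988 in macrophages. The standard error is the log2 difference divided by the square root of F. CPM use normalized library sizes, and 3 counts correspond to between 0.0698 and 0.107 CPM. The design without pairing was the main one. Deviations from group means correlated between libraries of one number at 0.449, 0.703 and 0.488 (carcinoma) and 0.688, 0.787 and 0.734 (macrophages), all over 0.1, so the numbers were taken to pair the libraries; in the carcinoma cells replicates 1 and 3 correlated across numbers as strongly (0.483 and 0.488). The paired fit leaves 2 and the unpaired fit 4 residual degrees of freedom. Carcinoma cells and macrophages were compared in 1 fit of 4 groups. Alternatives were DESeq2 1.42.0, other scaling factors and filters, the block, leaving out libraries or numbers, and summing carcinoma replicates 1 and 3. Scripts were tested on simulated data.

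The members and lists were chosen with earlier results of these data known. Values in each library are given for the 14 members with the smallest p in the carcinoma cells and the 8 in the macrophages, and for members whose call differed between the fits where a sentence turns on them; of each other list, genes were named from the 3 with the smallest p. E2f1, Pold3 and the Fen1 level in macrophages were singled out after their values were seen.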

Additional observations from a re-analysis of the deposited data

How the results depend on the processing

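The direction of the median of the 35 genes held under every alternative run, from -0.50 to -0.34 in the carcinoma cells and from -0.59 to -0.37 in the macrophages, and the counts for carcinoma cells against macrophages stayed at 31 or 32 higher and 2 lower. Calls of single genes did not. In the carcinoma cells, where 6 members were called lower and 32 genes lower and 78 higher in all, DESeq2 called 22 members, 455 genes lower and 708 higher, and without a filter on low counts 173 genes were higher. The replicate block gave 30 members, 999 lower and 1450 higher, and with DESeq2 29, 644 and 1043. The block without number 1 gave 29 members, 498 lower and 1055 higher, without number 2 35, 2802 and 2927, and without number 3 23, 340 and 803. With replicates 1 and 3 summed the counts were 0, 0 and 0, and with the block 18, 244 and 691. Leaving out single libraries gave 0 to 18 members, 0 to 230 genes lower and 0 to 391 higher, the highest without positive replicate 2; the cause was not tested. The call of Rfc2 was lost with upper-quartile factors (adjusted p = 0.0508) and without a filter (0.0542). In the macrophages, where 0 genes were called, DESeq2 called 7 members, 605 genes lower and 658 higher, and without a filter 1 member (Dut), 331 lower and 292 higher. The replicate block gave 23 members, 1524 lower and 1618 higher, and with DESeq2 22, 1362 and 1445. The block without number 1 gave 4 members, 691 lower and 626 higher, without number 2 21, 1374 and 1298, and without number 3 21, 1606 and 1743. Leaving out single libraries gave 0 members and 0 to 2 genes lower. The sign of E2f1 turned without negative replicate 3 (0.123), positive replicate 1 (0.000531) or positive replicate 2 (0.0388), and in the block without number 3 (0.0416), with a range of -0.162 to 0.123 over single libraries. That of Pole2 turned without positive replicate 1 (0.0198), with a range of -0.316 to 0.0198. The 3 libraries a group and the 2 residual degrees of freedom of the paired fit limit the precision.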

Other observations

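Fen1 stood apart from the other DNA synthesis genes in its level in macrophages. With both tables scaled together it was at 1.55 to 4.31 CPM in the 6 macrophage libraries and at 63.05 to 95.4 CPM in the 6 carcinoma libraries, a 30.4-fold difference of the means. Its partner in Okazaki fragment processing, Lig1, differed by 4.43-fold. Of the annotated exon length of Fen1 (chromosome 19, 10199132 to 10204169, GRCm38), 84.2% is shared with Tmem258 and the antisense gene Gm10143 on the other strand, and the share of its reads that the counting kept in either table is not known. Chaf1a, with 52.5% of its exon length shared with Ubxn6, differed by 4.57-fold.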
